A study of Mus musculus with 282 samples.

Results

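Slamf1 encodes CD150, a cell surface receptor of the signalling lymphocytic activation molecule (SLAM) family, and antibodies to CD150 are used to sort hematopoietic stem cells (HSCs) of the mouse. Every cell described here had been sorted as CD150 positive at the protein level, yet most cells gave no Slamf1 read. The sorted HSCs were therefore split by their Slamf1 transcript. A cell counted as Slamf1-detected at 10 or more counts per 1000000 gene counts (CPM), as Slamf1-negative at 0 Slamf1 reads, and was left out in between. Of 282 deposited single cell libraries, 232 were kept, with at least 100000 gene counts and 1000 detected genes each. Among the kept cells 45 were Slamf1-detected, 173 were Slamf1-negative and 14 lay between. The cells of each class were thus chosen by their Slamf1 level, which is given below as a description with no test.

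The cells came from the bone marrow of 6 mice aged 12 to 22 weeks in 2 experiments, all homozygous for a Col1a1 H2B-GFP allele (H2B-GFP/H2B-GFP) and for a Rosa26 rtTA allele (rtTA/rtTA). H2B-GFP is a fluorescent histone whose gene is switched on through the rtTA protein when doxycycline is given, and these mice were not induced. There is 1 group only, so no treated or wild-type cells stand beside it, and all cells carry both alleles. Sorting took LSK CD48-/lo CD150+ cells, a gate of cells that lack lineage markers and carry Sca-1 and Kit (LSK). The library names give a library series (29 or 32) and an HSC code, which together make 6 sets: HSC-3 and HSC-4 of series 29, and HSC-2, HSC-3, HSC-4 and HSC-5 of series 32. The labels do not say whether a set is a mouse, so errors and p-values over sets measure only how sets vary, and that spread can be technical. Median depth of the kept cells was 280096 gene counts (116009 to 1680714) and 5222 detected genes, and no pair of cells had identical counts. At the median depth 10 CPM is 2.80 reads. Libraries held no molecular identifiers, so reads are not independent molecules, and intervals given below cover counting error only.

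HSCs sit at the top of blood formation and renew themselves while giving rise to all blood lineages. Surface CD150 separates them from multipotent progenitors, and within the HSC pool a higher CD150 level has been linked with output to platelets and myeloid cells. Stem cells with transcripts of megakaryocyte genes such as von Willebrand factor (Vwf) are known as platelet-biased HSCs. The SLAM receptor genes lie close together on mouse chromosome 1. Most SLAM receptors, though not all, bind the like receptor on a neighbouring cell, and many signal through small adaptors and the kinase Fyn.

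The promoters of Slamf1 and of a pair of marker genes described below, Selp (P-selectin) and Flt3 (the receptor of a progenitor cytokine), are shown from RefSeq on build GRCm38.p6, each 5′ to 3′ along its gene and covering 250 bases before and 50 after the start site. The Slamf1 window is chr1:171766882-171767181 on the plus strand, the Selp window chr1:164115014-164115313 on the plus strand, and the Flt3 window chr5:147400440-147400739 on the minus strand. Capitals mark matches on either strand. For GATA factors the letters were TGATAA, and AGATAA was searched too. For ETS factors they were AGGAAG, and CGGAAG was searched too. For RUNX factors they were TGTGGT, and TGCGGT was searched too.
Slamf1: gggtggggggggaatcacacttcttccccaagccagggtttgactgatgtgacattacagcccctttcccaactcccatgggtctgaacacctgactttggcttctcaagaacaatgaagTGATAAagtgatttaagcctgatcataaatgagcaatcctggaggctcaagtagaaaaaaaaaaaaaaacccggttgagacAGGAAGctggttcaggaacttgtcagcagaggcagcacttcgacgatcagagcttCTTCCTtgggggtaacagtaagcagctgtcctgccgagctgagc
Selp: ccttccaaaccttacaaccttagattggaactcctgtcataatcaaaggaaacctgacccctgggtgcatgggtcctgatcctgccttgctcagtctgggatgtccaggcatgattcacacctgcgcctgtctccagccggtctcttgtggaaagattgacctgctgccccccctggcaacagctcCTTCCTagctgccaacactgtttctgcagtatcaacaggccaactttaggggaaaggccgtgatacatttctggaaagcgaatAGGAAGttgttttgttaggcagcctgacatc
Flt3: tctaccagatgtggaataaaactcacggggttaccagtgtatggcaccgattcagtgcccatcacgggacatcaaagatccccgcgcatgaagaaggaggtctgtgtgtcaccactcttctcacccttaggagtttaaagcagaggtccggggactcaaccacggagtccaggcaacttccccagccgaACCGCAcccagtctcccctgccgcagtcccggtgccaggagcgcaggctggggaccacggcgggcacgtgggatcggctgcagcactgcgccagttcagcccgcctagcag
The Slamf1 window held 1 GATA match and 2 ETS matches, the Selp window 2 ETS matches, and the Flt3 window 1 RUNX match. Of 32851 promoter windows of the same length, 18.6% held a GATA match, 46.5% an ETS match and 22.4% a RUNX match. These matches describe letters in a window and were not tied to any expression value.

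Slamf1 (ENSMUSG00000015316) lies on the plus strand of mm10 chromosome 1 from 171767127 to 171801184. It was detected in 19.4% of kept cells (45 of 232; 95% exact Clopper-Pearson interval 14.5 to 25.1%). Over the 6 sets the share was 19.7% ± 4.29 (SD). The lowest share was 11.6% in HSC-4 of series 29 (5 of 43 cells) and the highest 23.1% in HSC-5 of series 32 (9 of 39). HSC-3 of series 29 had 10 detected cells of 46 (21.7%), and in series 32 HSC-2 had 5 of 22 (22.7%), HSC-3 had 9 of 44 (20.5%) and HSC-4 had 7 of 38 (18.4%). The sets other than HSC-4 of series 29 thus lay within a narrow range, and the intervals of all 6 sets overlapped.

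In detected cells the Slamf1 level ran from 21.1 to 1067 CPM with a median of 287 CPM, and 38 of 45 cells stood at 100 CPM or more. Detected cells held 5 to 1219 Slamf1 reads, with a median of 85. The set medians were 303 and 422 CPM in HSC-3 and HSC-4 of series 29, and 284, 446, 191 and 228 CPM in HSC-2, HSC-3, HSC-4 and HSC-5 of series 32. The detected cells nearest the threshold had 21.1, 27.6 and 45.1 CPM, from 5, 11 and 12 reads. The cells just outside it had 9.66, 9.22 and 8.19 CPM, from 3, 2 and 1 reads. No cell lay between 9.66 and 21.1 CPM, so a threshold of 20 CPM picks the same cells. A Slamf1-negative cell of median depth (278389 gene counts) allows up to 10.8 CPM, taking 3 reads as the limit of a count of 0, and the shallowest allows 25.1 CPM. Near-empty wells (those under the filters with fewer gene reads than spike-in reads), of which there were 22 in HSC-2 and 16 in HSC-3 of series 32, held 8 Slamf1 reads among 616795 gene reads, or 13.0 CPM. All 8 reads came from 3 wells of HSC-3, whose near-empty wells held 177356 gene reads, so Slamf1 stood at 45.1 CPM there and at 0 in HSC-2. That level lies above the threshold of 10 CPM and above the lowest detected cells, and HSC-3 of series 32 had 1 detected cell at 46.0 CPM (10 reads). Another detected cell of that set had 0.47 gene reads per spike-in read, the only kept cell with fewer gene than spike-in reads, and 121 CPM of Slamf1 (14 reads). Without it, an alternative added after seeing the data, 0 genes passed the adjusted limma p, and Vwf stood at 1.33, Selp at 1.46, Sar1a at 2.00 and Flt3 at -0.64 on the scale described below. The part of well background in the Slamf1 calls was not tested.

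**Figure D1:**
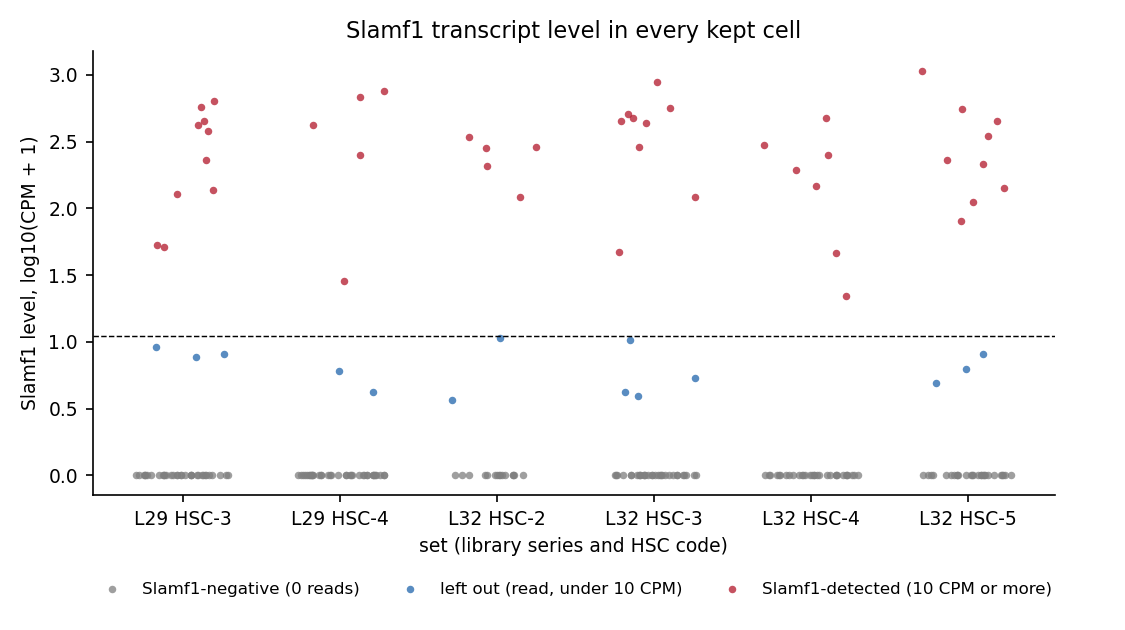
Slamf1 level of each kept cell as log10(CPM + 1) on the vertical axis, by set; each point is 1 cell, red for Slamf1-detected, grey for Slamf1-negative and blue for cells left out, and the dashed line marks 10 CPM. The detected cells sit between 21.1 and 1067 CPM in every set, apart from the cells at 0 and from the 14 cells in between, which reach 9.66 CPM.

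Library measures were compared over the 6 sets. Detected cells had a median of 5562 detected genes and negative cells 5148, with detected cells higher in 4 of 6 sets by 0.10 ± 0.15 on the log2 scale (mean ± SD over sets; exact two-sided sign-flip test, p = 0.125, adjusted over 4 measures 0.5; the smallest p that 6 sets allow is 0.03125, so 1 measure alone could not pass 0.05 after adjustment). Median gene counts were 282295 and 278389 (exact p = 0.8125, adjusted 0.875). Gene reads per spike-in read had medians of 18.3 and 16.9 (exact p = 0.875, adjusted 0.875). The mitochondrial share of gene counts was 3.74% and 3.62% at the median, and the mean difference over sets was -0.20 ± 0.85 percentage points (exact p = 0.84375, adjusted 0.875). The number of detected genes was nonetheless a covariate of the main limma comparison of genes, as was the plate, within each set. The edgeR and DESeq2 fits had no plate term, and only 1 edgeR fit held genes detected. Shares of cells and mean levels given below are not adjusted for either.

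Slamf1 was left out of the gene test, and of 9739 genes tested none separated the classes after adjustment in limma or edgeR. In limma over the 6 set differences with Benjamini-Hochberg adjustment, 0 genes had an adjusted p under 0.05 (0%), and the smallest adjusted p was 0.164. At an unadjusted p under 0.05, limma gave 588 genes (6.04%, against a nominal 5%), 310 higher (3.18%) and 278 lower (2.85%) in detected cells. In simulated cells 5.70% of the unchanged genes reached such a p in limma. edgeR's quasi-likelihood test on counts summed per set and class gave 0 genes after adjustment and 361 unadjusted (71 higher and 290 lower), and with genes detected as a covariate 0 and 497 (54 higher and 443 lower). DESeq2 on the same sums gave 220 after adjustment, 25 higher and 195 lower. The median difference over all genes was 0.02 in limma, -0.29 and -0.28 in the edgeR fits and -0.23 in DESeq2, so values lay lower in these count models. Differences below are detected minus negative on the log2(CPM/10 + 1) scale, with the SE of limma, and understate the change of low genes. No gene named below passed the adjusted limma test, and the values describe these cells.

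Some markers of the megakaryocyte and platelet lineage were found in a larger share of Slamf1-detected cells. Selp, the adhesion receptor stored in platelet granules, was at 10 CPM or more in 20 of 45 detected cells (44.4%) and in 16 of 173 negative cells (9.25%). Selp thus passed the filter for testing (10 CPM in 10% of the compared cells) only through the detected cells. Among detected cells the Selp share in series 29 was 10.0% in HSC-3 and 0% in HSC-4, and in series 32 it was 80.0%, 44.4%, 85.7% and 55.6% in HSC-2 to HSC-5. Among negative cells it was 0%, 2.78%, 6.67%, 12.9%, 29.0% and 3.70% in the same order. All 4 sets of series 32 had a higher share in detected cells, while HSC-4 of series 29 had no Selp-positive detected cell. The Selp difference was 1.46 ± 0.38, higher in 5 of 6 sets (limma p = 0.00373, adjusted p = 0.759), with 0.33 in series 29 and 2.08 in series 32 (limma p of that gap 0.017). Over all genes such a gap between series had an unadjusted limma p under 0.05 in 5.36% and an adjusted one in 0, and the smallest adjusted p was 0.903.

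Vwf, the platelet adhesion protein used as the marker of platelet-biased HSCs, followed the same pattern. It was present in 23 of 45 detected cells (51.1%) and 34 of 173 negative cells (19.7%), at mean levels of 190 and 58.7 CPM. Among detected cells the Vwf share was 30.0% and 20.0% in HSC-3 and HSC-4 of series 29 and 60.0%, 44.4%, 71.4% and 77.8% in HSC-2 to HSC-5 of series 32. Among negative cells it was 30.3%, 11.1%, 20.0%, 19.4%, 19.4% and 18.5%. The classes overlapped over sets through the series 29 sets, and HSC-3 of series 29 had a slightly lower share in detected than in negative cells. The Vwf difference was 1.39 ± 0.36 and above 0 in 6 of 6 sets, from 0.43 to 3.09 (limma p = 0.00376, adjusted p = 0.759), and 1.04 to 1.63 with any 1 set left out. Of all genes tested 1.48% were higher in 6 of 6 sets and 2% lower in 6 of 6.

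Of the other platelet lineage genes, Mmrn1 (multimerin, a platelet granule protein) was in 82.2% of detected and 60.1% of negative cells, with a difference of 0.77 ± 0.29 (limma p = 0.0269, adjusted p = 0.775). Its difference was 2.78 in HSC-2 of series 32 and 0.06 to 0.70 in the other 5 sets. Itga2b, the CD41 integrin chain, was in 28.9% and 17.9% of cells, 0.48 ± 0.22 and also above 0 in 6 of 6 sets (limma p = 0.0589, adjusted p = 0.827). Nfe2 and Fermt3, among the 3 highest genes of this list, stood near 0 at 0.04 ± 0.20 and 0.01 ± 0.37, as did the tetraspanin gene Cd9 (0.12 ± 0.29). Of the list as a whole, 14 of 16 tested members were above 0 (all genes 52.7%). At an unadjusted p under 0.05, 3 were higher and 0 lower (all genes 3.18% and 2.85%). The median difference, however, was 0.04 against 0.02 for all genes. In the count models it was -0.09 to -0.02 against -0.29 to -0.23 for all genes. The summed level of the list per set was 1793 to 3864 CPM in detected and 1801 to 3251 CPM in negative cells. Part of its 26 entries were not tested, since 10 lay below the filter of 10 CPM in 10% of the compared cells.

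**Figure D2:**
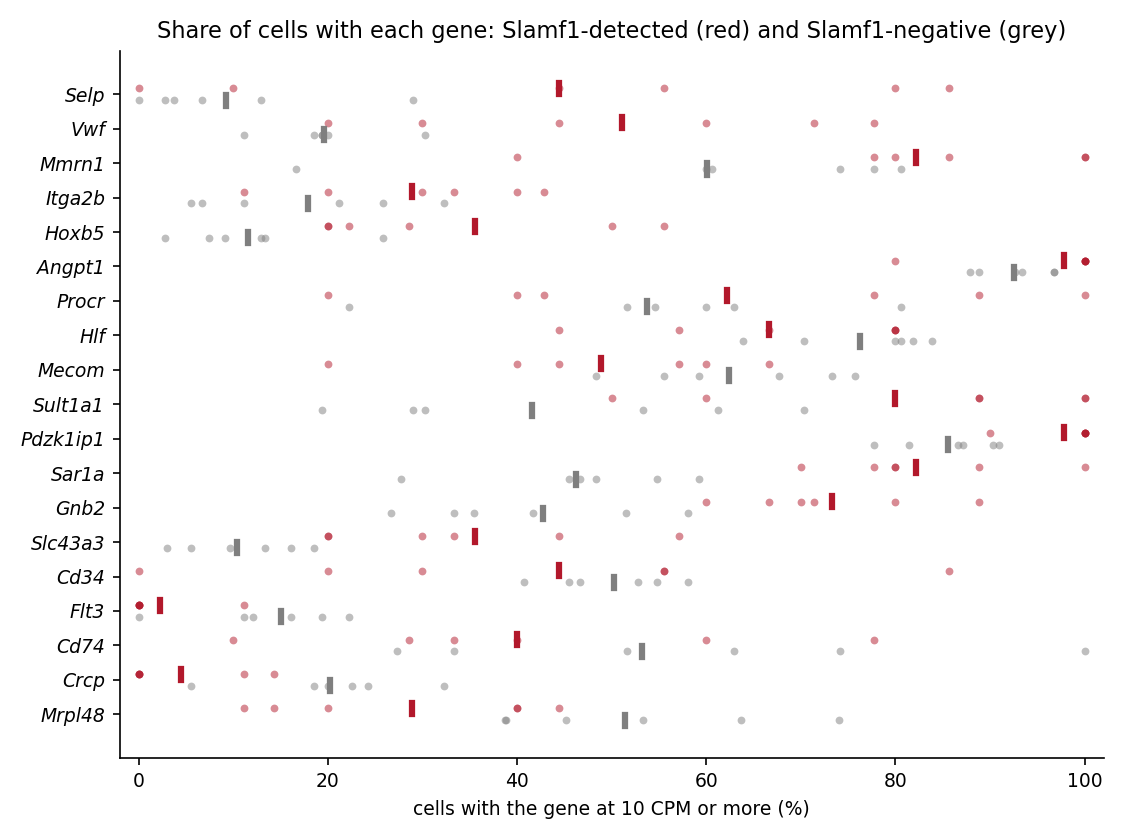
Percent of cells with each gene at 10 CPM or more; bars give the share over all Slamf1-detected cells (red, 45 cells) and Slamf1-negative cells (grey, 173 cells), and points the 6 sets. Selp (44.4% against 9.25%), Vwf (51.1% against 19.7%) and Sult1a1 (80.0% against 41.6%) stand wide apart, and the HSC gene Angpt1 is in 97.8% and 92.5% of cells.

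Vwf and Selp were found together in some cells and alone in others. Both were present in 14 of 45 detected cells (31.1%) and 6 of 173 negative cells (3.47%), and all 14 and all 6 of these also held Sult1a1, which encodes a phenol sulfotransferase. Vwf without Selp was present in 9 detected and 28 negative cells, and Selp without Vwf in 6 and 10. None of the 3 genes was present in 6 detected cells (13.3%) and in 84 negative cells (48.6%). Read the other way, Slamf1 was detected in 23 of 57 compared cells with Vwf (40.4%) and in 22 of 161 without it (13.7%). It was detected in 20 of 36 cells with Selp (55.6%), and in 25 of 182 without it (13.7%). These counts pool cells of all sets and carry no test. The genes of these counts and of the next paragraph were chosen after their values were seen.

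For Vwf, Selp and Sult1a1 the share was no higher in detected cells with much Slamf1 than in those with less. Vwf was in 19.7% of cells with 0 Slamf1 reads, in 6 of the 14 cells in between (42.9%), in 54.5% of detected cells below the median Slamf1 level and in 47.8% at or above it. For Selp the shares were 9.25%, 14.3%, 54.5% and 34.8%, and for Sult1a1 41.6%, 64.3%, 86.4% and 73.9%. Hoxb5 (11.6%, 28.6%, 27.3%, 43.5%) and Robo4 (18.5%, 21.4%, 36.4%, 47.8%) were at their highest share in the cells with most Slamf1. The detected groups hold 22 and 23 cells, and their intervals overlapped for all of these genes. The groups pool cells of all sets, and the set medians of Slamf1 in detected cells ran from 191 to 446 CPM. Sets therefore need not weigh alike in each group, and the part of the sets in these shares was not tested.

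**Figure D3:**
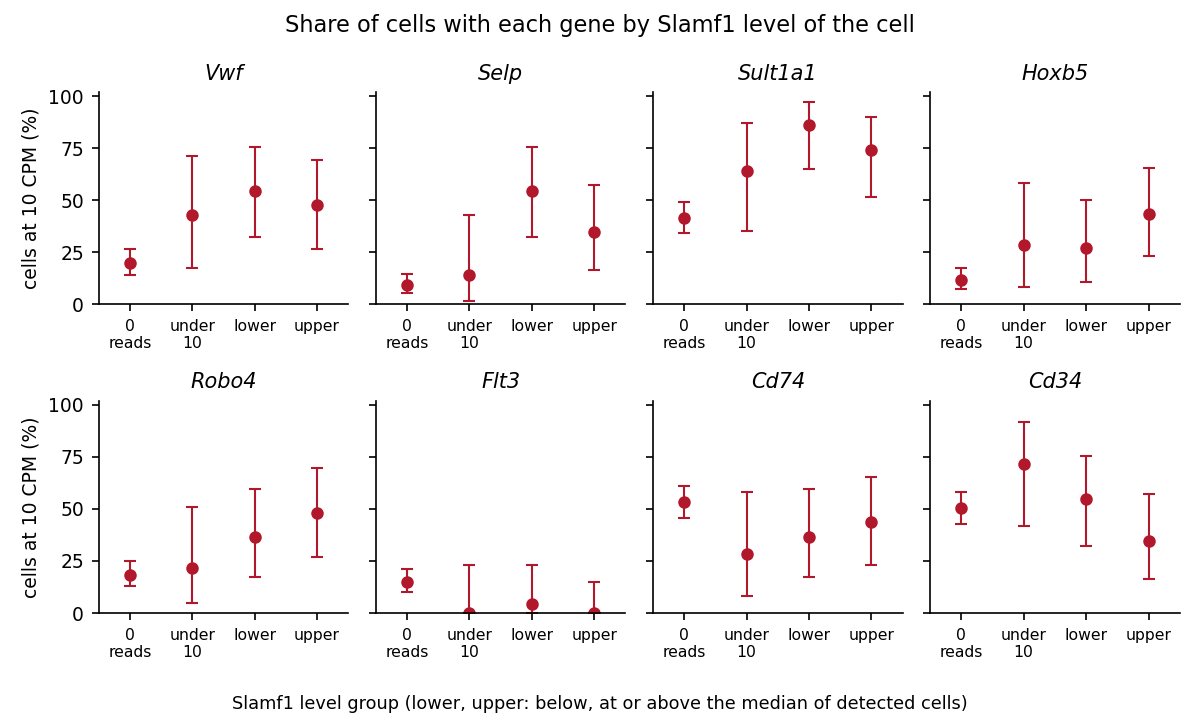
Percent of cells with each of 8 genes at 10 CPM or more, by the Slamf1 level of the cell: 0 reads (173 cells), under 10 CPM (14 cells), and detected cells below (22) or at or above (23) the median level; bars are 95% exact Clopper-Pearson intervals. Vwf goes from 19.7% at 0 reads to 54.5% and 47.8% in the detected groups, and Flt3 from 15.0% to 4.55% and 0%.

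Genes of HSC identity, such as receptors and transcription factors that mark or maintain stem cells, were above 0 more often than below. All 26 entries were tested, 22 above 0 and 4 below (all genes 52.7% above 0). At an unadjusted p under 0.05, 6 were higher and 1 lower (background 3.18% and 2.85%). The median difference was 0.28 (all genes 0.02), with a median above 0 in 6 of 6 sets (0.03 to 0.56) and in the count models (0.15 to 0.28). The list was chosen with earlier results of these cells known, so its direction is no independent evidence. Hoxb5, a homeobox factor used to mark long-term HSCs, was in 16 of 45 detected cells (35.6%) and 20 of 173 negative cells (11.6%), with a difference of 0.91 ± 0.26 above 0 in 6 of 6 sets (limma p = 0.00619, adjusted p = 0.759). Its share in detected cells was higher than in negative cells in each set, 20.0 to 55.6% against 2.78 to 25.8%, and the ranges overlapped.

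Angpt1, the ligand of the Tie2 receptor, was in 97.8% and 92.5% of cells and higher in 5 of 6 sets by 0.52 ± 0.17 (limma p = 0.0129, adjusted p = 0.759). Robo4, a vascular and HSC guidance receptor named after its value was seen, was in 42.2% and 18.5% of cells (1.09 ± 0.36).

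Other members of that list, chosen by name, were spread to both sides of 0. Kit, the stem cell factor receptor, was in 84.4% and 83.2% of cells (0.05 ± 0.36), and Ly6a, which encodes Sca-1, in 71.1% and 72.8% (-0.11 ± 0.41). Procr, the EPCR receptor gene, was in 62.2% and 53.8% (0.27 ± 0.36), and the transcription factor gene Gata2 in 77.8% and 63.0% (0.04 ± 0.37). Hlf, a transcription factor of HSC maintenance, had a lower level in detected cells, 243 against 325 CPM, and was in 66.7% against 76.3% of cells (-0.58 ± 0.26, limma p = 0.0495, adjusted p = 0.826). Mecom, another HSC transcription factor, was below 0 in series 29 (-1.89) and above 0 in series 32 (0.30), with a limma p for that gap of 0.0078 that did not pass adjustment. The long-term HSC list was split, 10 above 0 and 11 below of 21 tested (all genes 52.7% above 0), with a median of -0.04. At an unadjusted p under 0.05, 5 of that list were higher and 0 lower (background 3.18% and 2.85%). Its members Mllt3, a chromatin reader that supports HSC maintenance, in 84.4% and 59.5% of cells (1.08 ± 0.28), and the receptor gene Tie1, in 68.9% and 43.4% (0.93 ± 0.28), were named after their values were seen.

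Markers of progenitors were below 0 more often than above. Flt3, the receptor whose transcript marks multipotent and lymphoid progenitors, was in 1 of 45 detected cells (2.22%) and 26 of 173 negative cells (15.0%). The single Flt3-positive detected cell came from HSC-3 of series 32. Among negative cells the Flt3 share was 12.1%, 22.2%, 0%, 19.4%, 16.1% and 11.1% from HSC-3 of series 29 to HSC-5 of series 32, so HSC-2 of series 32 had no Flt3-positive cell in either class. The Flt3 difference was -0.66 ± 0.17, below 0 in the other 5 sets (limma p = 0.00317, adjusted p = 0.759). Flt3 passed the filter for testing only through the negative cells, so its sign and p carry that limit.

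Cd34, a surface marker that is lost in long-term HSCs, was in 44.4% and 50.3% of cells, at 132 and 277 CPM, and its difference was -0.89 ± 0.45 (limma p = 0.0804, adjusted p = 0.848), from -3.54 in HSC-4 of series 29 to 0.94 in HSC-4 of series 32. Cd27 was in 60.0% and 54.9% of cells (-0.28 ± 0.40) and Mef2c in 68.9% and 58.4% (0.22 ± 0.38). Of 6 tested members of the multipotent and lymphoid list of 16 genes, 1 was above 0 and 5 below (all genes 47.3% below). Of these 5, 1 had an unadjusted p under 0.05 (all genes 2.85% lower). The list median was -0.40 (all genes 0.02), and -0.55 to -0.30 in the count models (all genes -0.29 to -0.23). The summed level of the list per set was 343 to 953 CPM in detected and 663 to 1131 CPM in negative cells.

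Among antigen presentation genes Cd74, the invariant chain of MHC class II, was in 18 of 45 detected cells (40.0%) and 92 of 173 negative cells (53.2%), at 125 and 284 CPM. Its difference was -1.18 ± 0.31, below 0 in 6 of 6 sets (limma p = 0.00353, adjusted p = 0.759), from -2.90 to -0.22. In HSC-2 of series 32 all 15 negative cells held Cd74 and 60.0% of the detected cells did. The class II chain gene H2-Aa stood at -0.84 ± 0.64, H2-Ab1 at -0.61 ± 0.44 and H2-Eb1 at -0.52 ± 0.31, none under an unadjusted p of 0.05. H2-Aa was in 15 of 45 detected and 70 of 173 negative cells, and H2-Eb1 in 12 and 56. H2-Ab1 was in 21 and 78, so its share was no lower in detected cells. The class I genes went both ways. H2-K1 was in every detected cell and 98.8% of negative cells and stood at 0.27 ± 0.08 (limma p = 0.00999, adjusted p = 0.759), H2-D1 stood at -0.27 ± 0.17 and the light chain gene B2m at 0.06 ± 0.05. Of the 9 tested genes of the list 4 were above 0 and 5 below (all genes 52.7% above 0). Of Cd74 and the 3 chain genes, none was present in 17 detected cells (37.8%) and in 47 negative cells (27.2%). All 4 were present in 7 detected cells (15.6%) and in 32 negative cells (18.5%).

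Of the SLAM family itself, Cd84 was the only receptor gene besides Slamf1 that passed the filter on low values. Cd84 lies next after Slamf1 among the family genes, from 171839697 to 171890718 on the same strand, and was in 60.0% of detected and 46.2% of negative cells (0.41 ± 0.31, limma p = 0.22, adjusted p = 0.92). Among the adaptors and kinases, Fyn was in 28.9% and 19.7% of cells (0.38 ± 0.29), the phosphatase gene Inpp5d in 55.6% and 52.0% (-0.16 ± 0.26), and Ptpn11 in 20.0% and 17.9% (-0.14 ± 0.24). Cd48, whose protein the sort selected against, was at 10 CPM in 0 detected and 2 negative cells, Cd244a in 0 and 3, Ly9 in 0 and 4, Slamf7 in 0 and 1, and Slamf8 in 2 and 6. Slamf6, Slamf9 and the adaptor gene Sh2d1b2 reached 10 CPM in no compared cell, and Sh2d1a and Sh2d1b1 in 1 negative cell each.

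Most of the genes with the smallest p and 1 sign in all 6 sets were outside the HSC and platelet lists. Agreement of sign was part of how they were chosen and is no support. Sar1a, a small GTPase of vesicle export from the endoplasmic reticulum, was in 37 of 45 detected cells (82.2%) and 80 of 173 negative cells (46.2%). Its share was 70.0 to 100% in detected cells of a set and 27.8 to 59.3% in negative cells. The Sar1a difference was 2.02 ± 0.25 (limma p = 1.69e-05, adjusted p = 0.164). Pdzk1ip1, a small membrane protein found in HSCs, was in 97.8% and 85.5% of cells at 600 and 392 CPM, with a difference of 1.28 ± 0.19, from 0.89 to 2.08 over sets (limma p = 6.15e-05, adjusted p = 0.3).

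Pdzk1ip1 was also a main transcript of the near-empty wells, at 1242 CPM, while kept cells from these sets had 495 CPM, and the part of well background in its difference was not tested. The snoRNA host gene Snhg1 (1.00 ± 0.21) was likewise higher in those wells, 183 against 70.9 CPM, while Sar1a was lower there, 47.0 against 241 CPM, as were Vwf (24.3 against 68.7 CPM) and Selp (3.24 against 101 CPM). Of all genes tested 21.3% were higher in the near-empty wells.

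Sult1a1 was in 80.0% and 41.6% of cells at 489 and 222 CPM. Its difference was 1.88 ± 0.42, above 0 in all sets but only 0.13 in HSC-5 of series 32 and 4.04 in HSC-2 of that series (limma p = 0.00138, adjusted p = 0.759). Gnb2, a G protein beta subunit, was in 73.3% and 42.8% of cells (1.14 ± 0.21, limma p = 0.000365, adjusted p = 0.759), with 60.0 to 88.9% in detected and 26.7 to 58.1% in negative cells of a set. Slc43a3, a nucleobase transporter gene, was in 35.6% and 10.4% of cells (0.93 ± 0.18, limma p = 0.000589, adjusted p = 0.759). Fkbp3 (1.00 ± 0.24), Supt20 (1.49 ± 0.36) and Lgals3bp (0.64 ± 0.16, above 0 in 25 of 26 settings) make up the rest of the higher genes with Vwf.

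**Figure D4:**
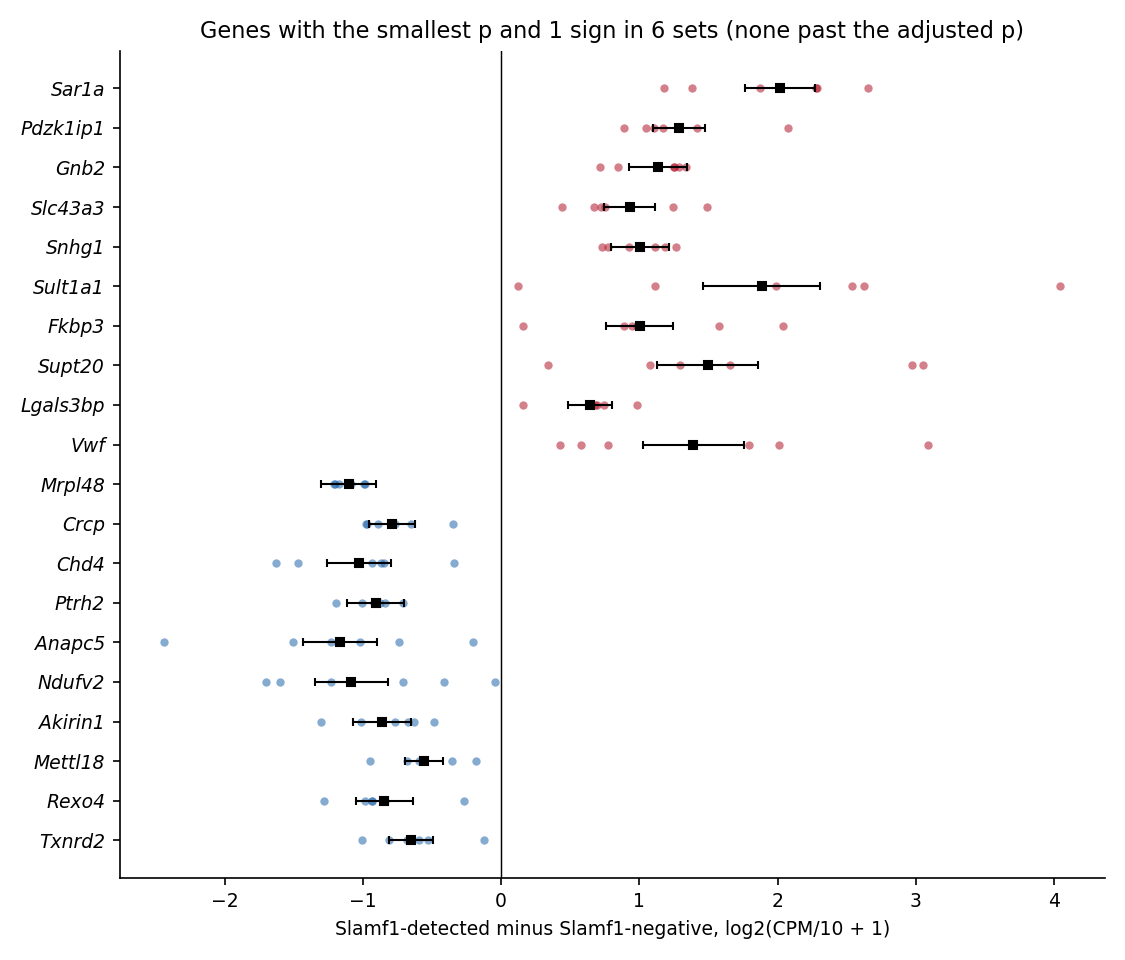
Slamf1-detected minus Slamf1-negative on the log2(CPM/10 + 1) scale for the 10 genes with the smallest p in each direction and 1 sign in 6 sets; points are sets, squares the limma estimate with its SE. Sar1a is farthest to the right at 2.02 and Anapc5 farthest to the left at -1.17, and no gene passed an adjusted p of 0.05.

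The 10 lower genes of that choice were in none of the HSC lists. Mrpl48, a protein of the mitochondrial ribosome, was in 13 of 45 detected cells (28.9%) and 89 of 173 negative cells (51.4%), with a difference of -1.10 ± 0.20 that ran from -1.21 to -0.99 over sets (limma p = 0.000316, adjusted p = 0.759). It shares sequence with a processed copy, Mrpl48-ps, at -0.80, and how the reads fell between them is uncertain. Crcp, a subunit of RNA polymerase III, was in 2 of 45 detected cells (4.44%) and 35 of 173 negative cells (20.2%), a difference of -0.79 ± 0.17 (limma p = 0.000958, adjusted p = 0.759). The remaining genes were Chd4 (-1.03 ± 0.23), Ptrh2 (-0.91 ± 0.20), Anapc5 (-1.17 ± 0.27), Ndufv2 (-1.08 ± 0.26), Akirin1 (-0.86 ± 0.21), Mettl18 (-0.56 ± 0.14), Rexo4 (-0.85 ± 0.21) and Txnrd2 (-0.65 ± 0.16). Crcp, Mettl18, Rexo4 and Txnrd2 passed the filter for testing only through the negative cells, so their signs and p-values carry that limit. Ndufv2 belongs to complex I of the respiratory chain. In the oxidative phosphorylation list 10 members were above 0 and 12 below (all genes 52.7% above 0), with a median of -0.03.

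Lists of cycling and growth genes were split between both directions, apart from the G2/M list, whose few tested genes lay mostly below 0. Of 25 tested S phase genes 15 were above 0 and 10 below (all genes 52.7% above 0). The S phase median was 0.12 in limma, 0.10 in edgeR, 0.16 in DESeq2 and -0.55 in edgeR with genes detected. At an unadjusted p under 0.05, 1 was higher (Cdc45, named after its value was seen, 0.49 ± 0.21) and 1 lower (Prim1, a primase subunit, -0.51 ± 0.18). Over all genes 3.18% were higher and 2.85% lower at that p of limma. Cdc45 passed the filter for testing only through the detected cells, and Prim1 only through the negative cells. Only 5 of 30 G2/M genes passed the filter, 1 above 0 and 4 below, and the proliferation marker Mki67 was at 10 CPM in 3 detected and 9 negative cells. The G2/M median was -0.12 in limma, -0.18 in edgeR, -1.54 in edgeR with genes detected and -0.12 in DESeq2. Over all genes these medians were 0.02, -0.29, -0.28 and -0.23. The growth and nucleolus list had 11 above 0 and 11 below, and the quiescence list 5 and 6. Its highest gene, Txnip, which restrains glucose uptake, was in all detected cells and 97.7% of negative cells (0.45 ± 0.12, limma p = 0.00489, adjusted p = 0.759). Of the genes of G0 exit, the Myc family member Mycn was in 86.7% and 70.5% of cells (0.87 ± 0.25, limma p = 0.0072, adjusted p = 0.759), whereas Myc, named after its value was seen, stood at -0.54 ± 0.20. Cdk6, a kinase of G0 exit, stood at 0.07 ± 0.26, and Ranbp1, a growth-linked nuclear transport gene, at -0.96 ± 0.27 (limma p = 0.00548, adjusted p = 0.759).

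Of the lists for lysosomes, immediate early genes, interferon and receptors, each had a limma median above 0 and a DESeq2 median below 0. The median over all genes was 0.02 in limma, -0.29 and -0.28 in the edgeR fits and -0.23 in DESeq2. A DESeq2 median below 0 alone thus marks no reversal. The background over all genes was 52.7% above 0, and 3.18% higher and 2.85% lower at an unadjusted p under 0.05. Lysosome and autophagy genes were above 0 in 12 of 17 (median 0.20, and -0.09 to -0.02 in the count models), 2 higher and 0 lower at an unadjusted p under 0.05. Immediate early genes were above 0 in 7 of 9 (median 0.36, -0.17 in edgeR, 0.04 in edgeR with genes detected and -0.13 in DESeq2). The phosphatase gene Dusp1 of this list was in 31.1% and 15.6% of cells (0.61 ± 0.21). Interferon genes were above 0 in 9 of 15 (median 0.26, and -0.77 to -0.24 in the count models), none under an unadjusted p of 0.05. Among cytokine and niche receptors 9 of 13 were above 0 (median 0.19, -0.11 in edgeR, 0.03 in edgeR with genes detected and -0.07 in DESeq2). The prostaglandin receptor gene Ptger4 was in 40.0% and 17.9% of cells (0.64 ± 0.26).

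**Figure D5:**
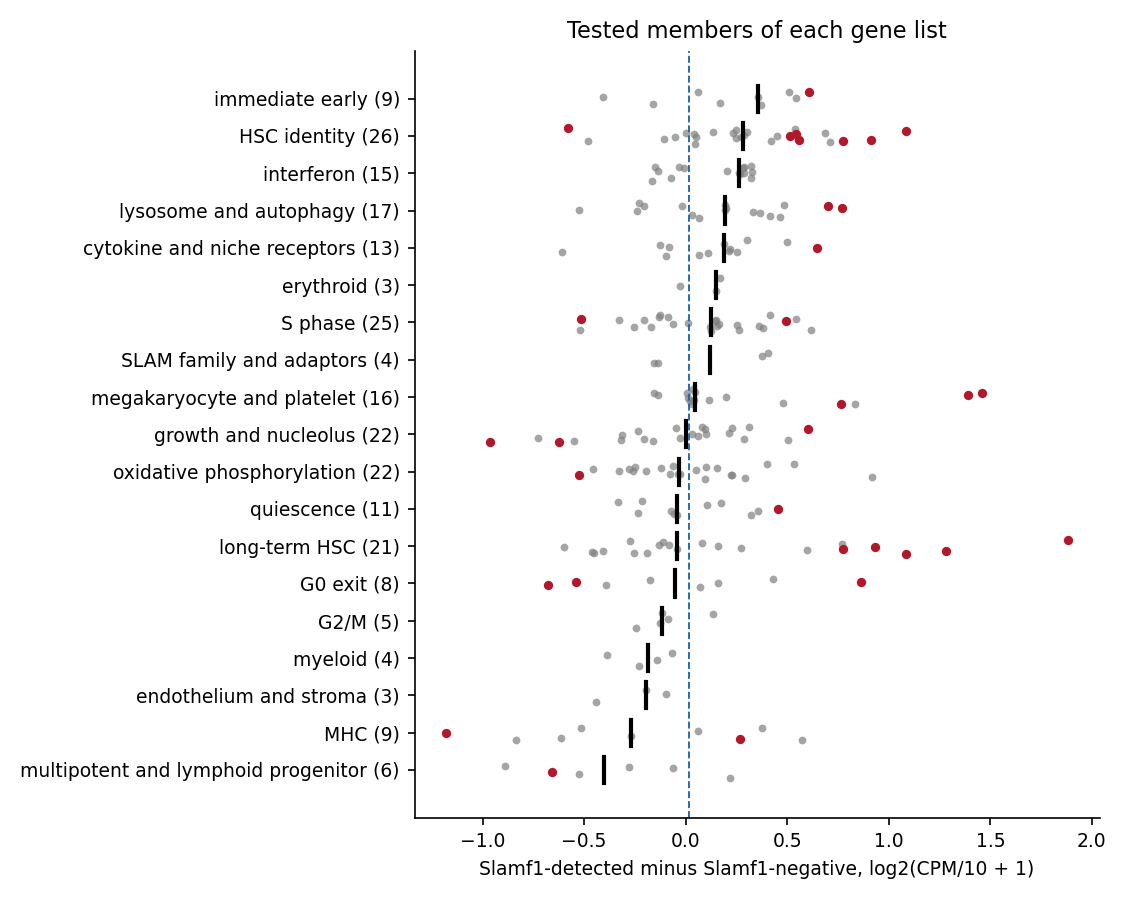
Slamf1-detected minus Slamf1-negative on the log2(CPM/10 + 1) scale for each tested member of the gene lists with at least 3 tested members (number in brackets); red points have an unadjusted limma p under 0.05, black bars are list medians and the dashed line is the median of all genes (0.02). The HSC identity list has 6 red points above 0 and a median of 0.28, and the multipotent and lymphoid list has the lowest median at -0.40.

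Markers of other blood and marrow cells were present in part, and their summed levels overlapped between the classes. The erythroid and the myeloid list held transcripts found in most cells. Car2, a carbonic anhydrase of red cells, was in 97.8% and 95.4% of cells (0.15 ± 0.13). Lyz2, a lysozyme of myeloid cells, was in 91.1% and 86.1% (-0.14 ± 0.26), and Prtn3, a granule protease, in 80.0% and 84.4% (-0.23 ± 0.38). Summed over a set, the erythroid list stood at 1394 to 3867 CPM in detected and 1283 to 2394 CPM in negative cells, and the myeloid list at 393 to 1362 and 994 to 1404 CPM. The part of these transcripts in the class differences was not tested. Of 16 erythroid genes 3 were tested, and Slc4a1 and Ermap reached 10 CPM in no cell. Of 16 myeloid genes 4 were tested, all below 0 with none under an unadjusted p of 0.05, and Elane and Ctsg were at 10 CPM in no cell. The B cell list had 1 tested gene of 9, Cd79b (28.9% and 22.5% of cells, 0.16 ± 0.28), and Ms4a1 was at 10 CPM in no cell. No gene of the T and NK cell list or of the mast cell list was tested, and Cd3d and Cd3g were at 10 CPM in no cell. Other members were present in a few cells and were named after their values were seen. Klrb1c was at 10 CPM in 8 of 45 detected and 9 of 173 negative cells, and Nkg7 in 2 and 16. Cpa3 of the mast cell list was in 3 and 4. Of 12 endothelial and stromal genes 3 were tested, and Cdh5, Lepr and Cxcl12 were at 10 CPM in no cell. The summed B cell list stood at 42.3 to 88.3 CPM in detected and 22.7 to 124 CPM in negative cells, and the endothelial and stromal list at 118 to 279 and 166 to 242 CPM, so the ranges overlapped.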

How the data were processed

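The deposited table holds raw counts per gene for 282 single sorted cells, deposited by the authors. Poly(A) RNA was copied by template switching, amplified and tagmented, per the labels' protocols, and GSNAP (2018-07-04), featureCounts (1.6.2) and mm10 are named in the submitters' processing notes. Strand handling is not stated. Of 49764 rows, 49671 were Ensembl genes, 92 were spike-ins (11.7% of all counts) and 1 was the transgene; CPM used the Ensembl rows only. Symbols were matched for 49326 genes. Genes at 10 CPM or more in 10% of the 218 compared cells were tested, without Slamf1. A gene could pass this filter through 1 class alone. Selp and Cdc45 passed through detected cells alone, and Flt3, Crcp, Mettl18, Rexo4, Txnrd2 and Prim1 through negative cells alone. In each set, log2(CPM/10 + 1) was fitted on class, plate and standardized log2 genes detected, and the 6 set differences, weighted by design precision, went to limma (3.58.1, trended) with Benjamini-Hochberg adjustment. This test was chosen over a count model because the comparison needs a covariate per cell; edgeR (4.0.16) and DESeq2 (1.42.0, R 4.3.3) on counts summed per set and class, and scran (1.30.0) size factors, were alternatives. The scripts were tested on simulated data. The 22 gene lists (397 entries) and the class rule were chosen with earlier results of these data known. Named genes were the 10 in each direction with the smallest p and 1 sign in 6 sets, all tested SLAM family genes, the 3 highest and the smallest-p tested gene of each list, and a fixed set of 19 HSC and platelet genes; a few of these are not reported here. Genes with no symbol or only a provisional name, and pseudogenes, were counted and not named, apart from 1 pseudogene printed beside its parent gene. Wells under the count filter (50) were left out, of which 38 were near-empty.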

Additional observations from a re-analysis of the deposited data

Results flagged for a closer look

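In 4 of 47 groups of 6 set values that were checked, 1 set lay far from the other 5; chance alone flags about 1 in 20 groups. The difference in mitochondrial share was -1.85 percentage points in HSC-4 of series 29, and -0.24 to 0.45 in the other sets. The Kit difference was 2.48 on the log2 scale in HSC-4 of series 29 and -0.95 to 0.09 in the others. Itga2b stood at 1.69 in the same set and 0.01 to 0.49 elsewhere, and Mmrn1 at 2.78 in HSC-2 of series 32 and 0.06 to 0.70 elsewhere. Each of these sets has 5 Slamf1-detected cells, the fewest of the 6 sets.

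The H2B-GFP transgene, a row outside the gene comparisons, was at 10 CPM or more in 5 of 232 kept cells (2.16%; 3 cells, the limit that a count of 0 allows, would be 1.29%), although the mice were not induced. Of these, 2 were Slamf1-detected, 2 Slamf1-negative and 1 in between; the highest held 126 reads, and 19 cells held any read.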

How the results depend on the processing

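Of 26 settings (other thresholds for Slamf1, scalings, filters, covariates, thinned reads, each set left out, 1 cell left out after seeing the data, and the count models), the number of genes past an adjusted p of 0.05 was 0 in all but DESeq2, which called 220, 25 higher and 195 lower. Of these, 215 had the sign they had in limma. An unadjusted limma p under 0.05 was found for 99 of them, and for 6.04% of all genes tested. Among the 101 named genes DESeq2 called 13: Sar1a, Gnb2, Slc43a3, Sult1a1, Supt20, Vwf, Selp, Mrpl48, Crcp, Mettl18, Rexo4, Flt3 and Cd74. The named genes were chosen in part by their limma p in the same cells, so this overlap is no support. The cause of the gap between DESeq2 and the other settings was not tested. The share of genes at an unadjusted p under 0.05 was 3.71% with edgeR (71 higher, 290 lower) and 12.9% with DESeq2 (219 higher, 1037 lower). Counting 1 read as detection would raise the share of Slamf1-detected cells to 25.4% (59 of 232). Over all settings 53 of 101 named genes kept the sign of their difference. Precision is limited by 5 to 10 detected cells per set.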
